A study of Mus musculus with 19 samples.

Results

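The genes of MHC class I antigen presentation were followed in neoplastic lung cells in which C/EBP transcription factors or the kinase LKB1 had been targeted. The set was fixed as 10 genes, *H2-K1*, *H2-D1*, *B2m*, *Tap1*, *Tap2*, *Tapbp*, *Psmb8*, *Psmb9*, *Nlrc5* and *Erap1*, which were found by exact gene name among the 53558 genes of the count files. All 10 passed the filter on low counts, together with 13976 other genes, so 13986 genes were tested. RNA was taken from cells sorted out of lung tumors that arose in KT;H11LSL-Cas9 mice, which carry Cre-dependent alleles, tdTomato and Cas9 among them. Lentiviral vectors brought Cre and sgRNAs into the lung by the airway, and tumors grew for 17 weeks. The sgInert group (n = 7 libraries) received a vector with 3 control sgRNAs named sgNeo1, sgNT1 and sgNeo2, the sgCebpa/b/d group (n = 7) a vector with sgRNAs against *Cebpa*, *Cebpb* and *Cebpd*, and the sgLkb1 group (n = 5) a vector with an sgRNA against *Lkb1*. All groups therefore shared the alleles of this strain. Live cells negative for CD45, CD31, F4/80 and Ter119 were collected, and libraries were made from pellets of these cells. The mice were of mixed background and both sexes, and females gave 5 of 5 sgLkb1, 3 of 7 sgInert and 4 of 7 sgCebpa/b/d libraries.

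MHC class I molecules show peptides from inside the cell to CD8+ T cells and natural killer cells. Peptides made by the proteasome, whose catalytic subunits can be replaced by the interferon-inducible immunoproteasome subunits, are carried into the endoplasmic reticulum by the TAP transporter, trimmed, and loaded with the help of tapasin onto a heavy chain paired with beta-2 microglobulin. NLRC5 is a transcriptional coactivator of several of these genes, and tumors often lower the pathway.

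The libraries differed in ways that the groups did not explain. Rounded expected counts summed to between 2760731 and 9944134 per library, with a median of 6028922. A title number beginning with ZR was given to 4 sgInert libraries, and one beginning with MT to 3 sgLkb1, 3 sgInert and 4 sgCebpa/b/d libraries. No number was given to 2 sgLkb1 and 3 sgCebpa/b/d libraries. The number is read here as that of the animal, and it was shared by 3 libraries of sgCebpa/b/d (replicates 1, 3 and 4), by 2 of sgLkb1 and by 2 of sgInert, so n counts libraries and p-values measure the spread between libraries. *Stk11*, the mouse gene for LKB1, stood at 19.5 to 22.9 counts per 1000000 (CPM) in sgInert and at 7.53 to 12.5 CPM in sgLkb1 libraries, with no overlap. The alveolar and epithelial genes *Sftpc* (at least 9640 CPM), *Epcam* (at least 135 CPM) and *Nkx2-1* (at least 191 CPM) were high in every library. Markers of other cell types moved with the titles. Summed over 27 immune markers, the level was 14.4 to 68.7 CPM in sgInert, 18.3 to 23.2 CPM in sgCebpa/b/d libraries with a number and 168 to 197 CPM in the 3 without one, 24.1 to 26.1 CPM in sgLkb1 libraries with a number and 89.1 and 177 CPM in the 2 without one. Summed over 12 endothelial markers, sgInert libraries had 12.3 to 60.9 CPM. With and without a number, sgLkb1 libraries had 65.5 to 122 and 124 to 245 CPM, and sgCebpa/b/d libraries 27.9 to 67.2 and 237 to 323 CPM. None of the 4 gated antigens marks fibroblasts, while the paper describes selection of tdTomato-positive neoplastic cells in its *Lkb1* restoration RNA-seq. Whether transcripts of fibroblast markers came from fibroblasts or from neoplastic cells was not tested. Summed over 10 fibroblast markers, the level was 19.7 to 31.7 CPM in sgInert libraries with an MT number and 94.9 to 321 CPM in those with a ZR number. It was 90.6 to 332 CPM in sgCebpa/b/d and 156 to 415 CPM in sgLkb1 libraries. At an edgeR adjusted p under 0.05 (quasi-likelihood test), 6 of 12 endothelial, 2 of 9 fibroblast and 0 of 13 immune markers tested were higher in sgCebpa/b/d than in sgInert, where 10.1% of all genes were called. In sgLkb1 against sgInert the counts were 1, 2 and 0, where 5.78% of all genes were called. At an unadjusted p under 0.05, 4, 2 and 0 of 13 immune markers passed in sgCebpa/b/d against sgInert, sgLkb1 against sgInert and sgCebpa/b/d against sgLkb1. Of all genes, 23.2%, 18.5% and 18.3% passed in the same comparisons. Among MT libraries alone, 7 of 9 fibroblast markers were higher in sgCebpa/b/d (8.55% of all genes were called) and 6 of 9 in sgLkb1 (6.97%), each against sgInert, and with the title series as a covariate 6 of 9 were in both (6.62% and 4.70%). The part of these cells in the results below was not tested beyond the values given, and in bulk RNA fewer cells of a type and less RNA per cell cannot be told apart.

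Of the 10 genes, 7 lie on chromosome 17 in or beside the MHC. In GENCODE annotation of GRCm38 these are *Tapbp* (chr17:33915899-33929292, plus strand), *H2-K1* (chr17:33996017-34000347, minus strand), the cluster of *Psmb9* (chr17:34181987-34187764, minus strand), *Tap1* (chr17:34187553-34197225, plus strand), *Psmb8* (chr17:34197721-34201454, plus strand) and *Tap2* (chr17:34203527-34216321, plus strand), and *H2-D1* (chr17:35262730-35267499, plus strand). *B2m* is on chromosome 2 (chr2:122147686-122153083, plus strand), *Nlrc5* on chromosome 8 (chr8:94434356-94527272, plus strand) and *Erap1* on chromosome 13 (chr13:74639568-74693201, plus strand). All are protein-coding. RefSeq starts of *Tap1* and *Psmb9* are 226 bases apart on opposite strands, and 2.40% of the 75-base windows of *Tap1* transcripts are shared with *Psmb9*. The heavy chain genes are members of a large family, but only 3.10% of *H2-K1* and 5.56% of *H2-D1* windows occur in a transcript of another gene, and RSEM's posterior SD of their counts was at most 0.6 counts.

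The regulatory sequence before *B2m* and *H2-K1* is shown because the light chain and the heavy chains varied together across libraries, as described below, while lying on separate chromosomes. The lines are from RefSeq promoter windows (GRCm38.p6), and those of *B2m* and *H2-K1* end at the last base before the GENCODE gene. Capitals mark matches, on either strand, to GAAANNGAA (the core of an interferon-stimulated response element), GGGATTCCC (an NF-kappa-B site), TGACG (a cyclic AMP response element core, as in the X2 box of class I promoters) and ATTGG (the Y box); none of these matches overlap. The third line is the stretch of the *H2-D1* window around its NF-kappa-B match, and since the RefSeq start of *H2-D1* lies downstream of the GENCODE start, it falls inside the GENCODE gene.
*B2m*, chr2:122147437-122147685, plus strand: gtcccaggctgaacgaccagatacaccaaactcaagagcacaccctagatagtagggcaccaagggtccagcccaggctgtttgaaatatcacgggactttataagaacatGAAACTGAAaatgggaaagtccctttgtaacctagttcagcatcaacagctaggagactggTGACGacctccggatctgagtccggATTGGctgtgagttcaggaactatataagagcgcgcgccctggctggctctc
*H2-K1*, chr17:34000348-34000597, minus strand: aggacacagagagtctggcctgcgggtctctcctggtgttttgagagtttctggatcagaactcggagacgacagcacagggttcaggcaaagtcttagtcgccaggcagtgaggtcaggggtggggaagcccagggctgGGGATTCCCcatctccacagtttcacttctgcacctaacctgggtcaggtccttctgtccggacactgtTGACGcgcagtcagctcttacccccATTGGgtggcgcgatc
*H2-D1*, chr17:35262914-35262942, plus strand: cccagggctgGGGATTCCCcatctcctca
Promoter windows were found for 8 of the 10 genes, and 5 of them (*H2-D1*, *Tapbp*, *Psmb8*, *Psmb9* and *Erap1*) lie wholly inside the GENCODE gene, so they precede the RefSeq start only. In the 250 bases before the start, TGACG was present in 5 of the 8 (*B2m*, *H2-K1*, *H2-D1*, *Tap1* and *Psmb9*, the last 2 of which share their window in part) against 17.8% of all 32851 windows, and ATTGG in 6 of 8 against 33.8%. The NF-kappa-B sequence was present before *H2-K1* and *H2-D1* and in 0.301% of all windows, the response element core before *B2m* and *Erap1* and in 7.13%, and TTCNNNGAA (a gamma-activated site) before *Psmb8* and in 7.02%. TTGCNNAA, a sequence with the spacing of C/EBP sites, was in none of the 8 windows and in 9.56% of all windows. Only these exact letters were searched for, and other forms of the same sites were not looked for. A window or stretch without a mark may therefore still hold such a site. These matches describe the sequence and are not measured binding sites.

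By TPM (transcripts per 1000000), which is scaled by gene length, the 10 genes spanned a wide range. *B2m* was highest, with a median of 1082 TPM over the 19 libraries, followed by *H2-K1* (339 TPM) and *H2-D1* (285 TPM). *Erap1*, which trims peptides, had a median of 37.1 TPM, *Psmb9* 30.0 TPM, *Tapbp* 25.4 TPM and *Psmb8* 18.1 TPM. The transporter genes were lower, with *Tap1* at 4.53 TPM and *Tap2* at 3.94 TPM, and *Nlrc5* was lowest, at 1.29 TPM. The ranges of neighbours in this order overlapped across libraries, except those of *H2-D1* (lowest 181 TPM) and *Erap1* (highest 72.3 TPM). *B2m* and *H2-K1* overlapped narrowly, from 522 TPM, the lowest of *B2m*, to 551 TPM, the highest of *H2-K1*. *B2m* also varied more between libraries than the heavy chains, by 5.44-fold between its lowest and highest TPM against 2.26-fold for *H2-K1* and 2.19-fold for *H2-D1*. *Tapbp* varied least, by 1.73-fold.

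**Figure D1:**
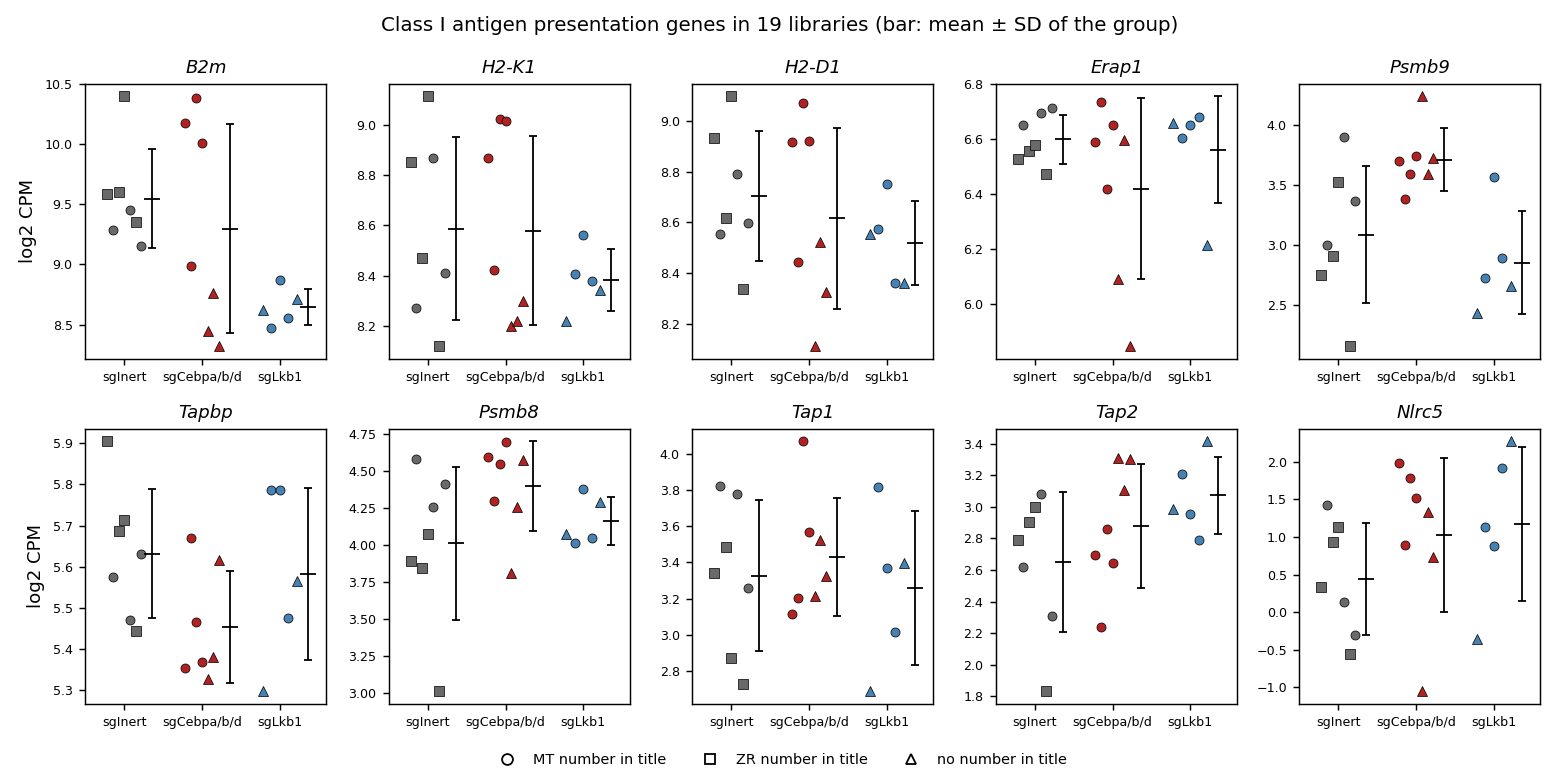
Level of each class I gene in every library, as log2 CPM (vertical axis) by group (horizontal axis). Each point is a library, its shape gives the kind of title number, and bars show the mean ± SD of the group (7, 7 and 5 libraries). *B2m* lies lower in all 5 sgLkb1 libraries than in all 7 sgInert libraries, and the other 9 genes overlap between all groups.

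None of the 10 genes changed in tumors with sgRNAs against the C/EBP genes or *Lkb1* at an edgeR adjusted p under 0.05 (quasi-likelihood test, adjusted over 13986 genes), and so none of the 10 was called in any of 3 comparisons. Over all genes tested, the same threshold called 10.1% in sgCebpa/b/d against sgInert, 5.78% in sgLkb1 against sgInert and 5.96% in sgCebpa/b/d against sgLkb1. At an unadjusted p under 0.05, 1 of the 10 genes passed in the first comparison (*Psmb9*), 1 in the second (*B2m*) and 2 in the third (both), where 23.2%, 18.5% and 18.3% of all genes did. DESeq2 called 0, 0 and 1 of the 10, and 13.0%, 8.15% and 8.12% of all genes. The median log2 fold change of the 10 genes was 0.04, -0.06 and 0.15 in the 3 comparisons, and that of all genes 0.02, -0.01 and 0.03. With no call, the intervals state what these libraries can and cannot show. In sgCebpa/b/d against sgInert the 95% interval of the fold change of *H2-K1* ran from 0.790 to 1.25 and that of *H2-D1* from 0.777 to 1.17. For *Nlrc5*, with 1 to 35 counts per library, it ran from 0.740 to 3.91, so a change of this low gene was not resolved at this depth.

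**Figure D2:**
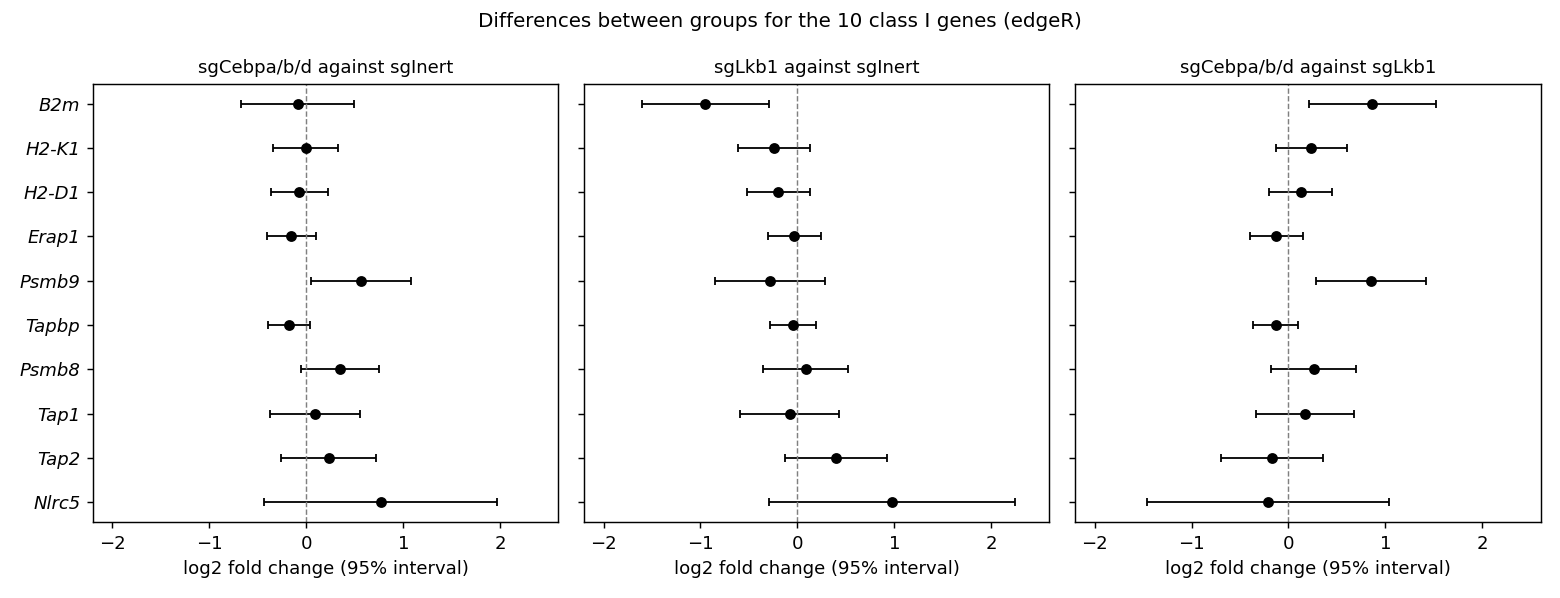
Log2 fold change (horizontal axis) of each class I gene (vertical axis, in order of median TPM) in the 3 comparisons, with 95% intervals from edgeR as bars. The interval of *B2m* lies below 0 in sgLkb1 against sgInert (-1.61 to -0.29) and the intervals of *H2-K1*, *H2-D1*, *Erap1* and *Tapbp* include 0 in all 3 panels.

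The heavy chain genes encode the polymorphic chain that holds the peptide. *H2-K1* was 278 CPM at the lowest, 355 at the median and 555 at the highest of the 7 sgInert libraries, and 294, 343 and 520 CPM in the 7 sgCebpa/b/d libraries. The 5 sgLkb1 libraries had 298, 339, 378, 333 and 324 CPM. The groups overlapped, and sgLkb1 values fell inside the sgInert range. Against sgInert, sgCebpa/b/d gave a log2 fold change of -0.01 ± 0.16 (SE) and sgLkb1 of -0.24 ± 0.18 (edgeR adjusted p = 0.989 and 0.522). *H2-D1* showed 323, 392 and 548 CPM (lowest, median, highest) in sgInert, 276, 367 and 537 CPM in sgCebpa/b/d, and 376, 381, 432, 328 and 328 CPM in the 5 sgLkb1 libraries. Its log2 fold changes against sgInert were -0.07 ± 0.14 and -0.20 ± 0.16 (edgeR adjusted p = 0.820 and 0.556). When the 16 genes with an H2-K, H2-D, H2-Q or H2-T name were summed to 1 feature, the log2 fold changes were 0.01 ± 0.15 and -0.23 ± 0.17 (edgeR adjusted p = 0.978 and 0.524).

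*B2m*, the light chain, was the member with the clearest separation. The 7 sgInert libraries had 569 CPM at the lowest, 700 at the median and 1349 at the highest. The 5 sgLkb1 libraries had 394, 355, 468, 376 and 419 CPM, all below every sgInert library. Groups that do not overlap in this direction were found for 2.00% of all genes tested in the comparison. The log2 fold change was -0.95 ± 0.32, a fold of 0.518 (95% interval 0.329 to 0.815), but its adjusted p over all genes was 0.0835 (edgeR). The call depended on which libraries shared in the estimate of the spread and on covariates. With only the sgInert and sgLkb1 libraries in the edgeR fit, the log2 fold change was -0.94 and the adjusted p 0.00516, where 6.21% of all genes were called. With sex as a covariate it was -1.48 (adjusted p = 0.00132, with 8.99% of all genes called). All sgLkb1 libraries were female, so the sex term was estimated from the other groups. In sgCebpa/b/d the 4 MT libraries were female and the 3 without a number male, so sex and title series cannot be told apart there. In the fit with sex, 10 of 12 endothelial, 7 of 13 immune and 4 of 9 fibroblast markers were also called higher in sgLkb1. With the title series as a covariate it was -0.26 (adjusted p = 0.779), and among libraries with an MT number alone -0.67 (adjusted p = 0.134), where the 3 sgInert libraries had 569 to 700 CPM and the 3 sgLkb1 libraries 355 to 468 CPM.

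In sgCebpa/b/d libraries *B2m* fell into 2 ranges. The 3 libraries that shared a title number (replicates 1, 3 and 4) had 1156, 1338 and 1027 CPM. The other 4 libraries, replicates 2, 5, 6 and 7, had 506, 348, 434 and 320 CPM, below all sgInert libraries. The former lay above 6 of the 7 sgInert libraries, and the remaining one, sgInert replicate 4, had 1349 CPM. The log2 fold change of all 7 libraries against sgInert was -0.09 ± 0.28 (edgeR adjusted p = 0.900), and the interval of the fold, 0.629 to 1.41, covers both directions. Without the 3 libraries of the shared number, an alternative chosen after their values were seen, it was -0.95 (adjusted p = 0.00396, with 10.3% of all genes called), and among MT libraries alone it was 0.66 (adjusted p = 0.107). Without those 3 libraries, 11 of 12 endothelial and 3 of 13 immune markers were called higher in sgCebpa/b/d. Between sgCebpa/b/d and sgLkb1 the log2 fold change was 0.86 ± 0.31 (edgeR adjusted p = 0.122), 1.33 among MT libraries alone (adjusted p = 0.00384, with 6.98% of all genes called), and 0.00 without the 3 libraries (adjusted p = 0.998). Thus the comparison of *B2m* with sgCebpa/b/d rested on 1 animal number.

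The heavy chains followed *B2m* from library to library. In the 3 libraries of the shared number *H2-K1* was 468, 520 and 518 CPM and *H2-D1* 483, 537 and 485 CPM, while in the other 4 sgCebpa/b/d libraries *H2-K1* was 294 to 343 CPM and *H2-D1* 276 to 367 CPM, with no overlap. Over the 19 libraries the Pearson correlation of log2 CPM was 0.910 between *H2-K1* and *H2-D1*, 0.822 between *H2-K1* and *B2m* and 0.844 between *H2-D1* and *B2m*, and over the 10 MT libraries 0.907, 0.834 and 0.869. These are descriptions, since libraries share animals and title series. The TPM of *H2-K1* and *H2-D1* together, divided by that of *B2m*, was 0.333 to 0.532 in sgInert, 0.320 to 0.398 in the 3 libraries of the shared number, 0.556 to 0.849 in the other 4 sgCebpa/b/d libraries and 0.638 to 0.827 in sgLkb1 libraries. The light chain thus varied more than the heavy chains, and libraries with low *B2m* had the highest heavy to light chain ratio. The nonclassical heavy chain gene *H2-Q7* had 65.2, 106 and 105 CPM in the 3 libraries of the shared number, 12.97 to 28.0 CPM in the other 4, 13.7 to 63.6 CPM in sgInert (highest again in replicate 4) and 13.9 to 25.2 CPM in sgLkb1. Immune markers summed to 18.3 to 23.2 CPM in the sgCebpa/b/d libraries with a number, these 3 included, and the 3 libraries without a number, with 168 to 197 CPM of immune markers, had the 3 lowest values of *B2m* in their group.

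**Figure D3:**
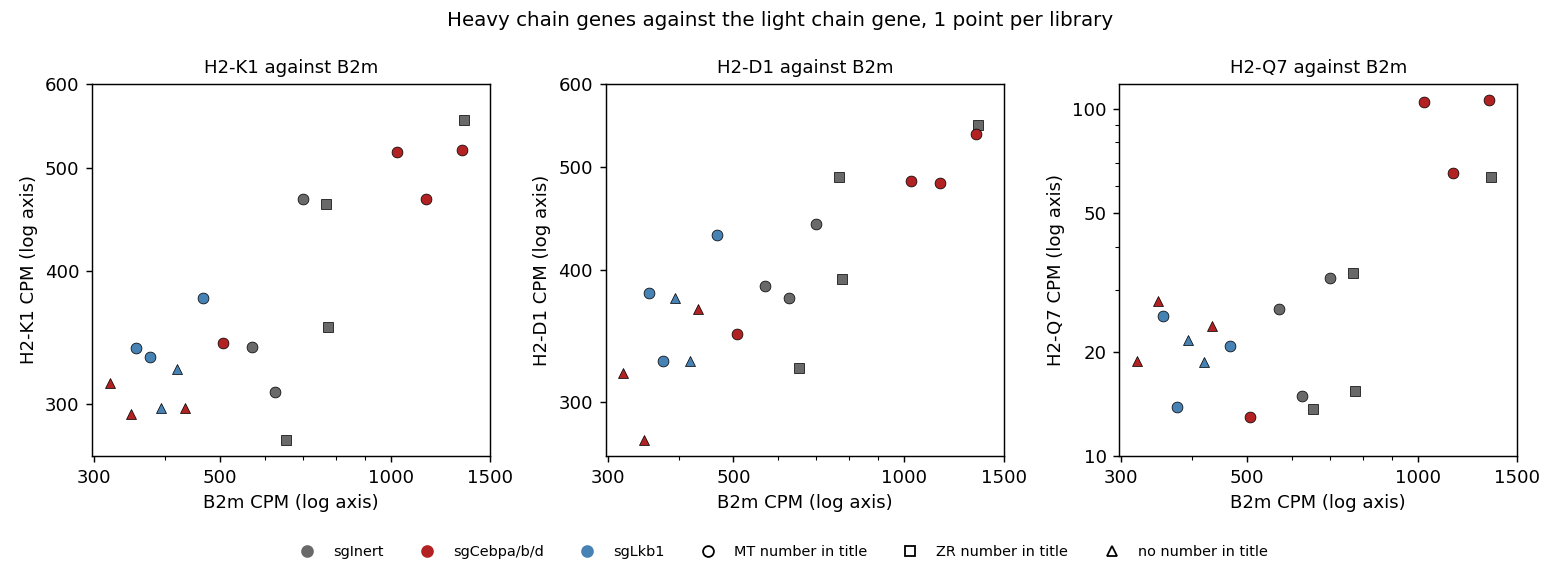
CPM of *H2-K1*, *H2-D1* and *H2-Q7* (vertical axes, log scale) against CPM of *B2m* (horizontal axis, log scale), 1 point per library, with colour for the group and shape for the kind of title number. The 3 sgCebpa/b/d libraries that share a number and sgInert replicate 4 lie at the upper right, between 1027 and 1349 CPM of *B2m*.

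Peptide supply to the class I molecule was described through the transporter, tapasin and the trimming enzyme. *Tap1* had 6.30, 9.81 and 13.8 CPM (lowest, median, highest) in sgInert, 8.33, 9.70 and 16.5 CPM in sgCebpa/b/d, and 6.12, 13.8, 10.01, 7.77 and 10.2 CPM in the 5 sgLkb1 libraries. *Tap2*, the partner of *Tap1* in the transporter, had 3.24, 6.60 and 8.13 CPM in sgInert, 4.39, 6.92 and 9.59 CPM in sgCebpa/b/d, and 7.62, 8.94, 7.43, 6.59 and 10.3 CPM in sgLkb1. Their groups overlapped throughout. The log2 fold changes against sgInert were 0.09 ± 0.23 and 0.23 ± 0.24 in sgCebpa/b/d, and -0.08 ± 0.25 and 0.40 ± 0.25 in sgLkb1 (edgeR adjusted p from 0.434 to 0.912). *Tapbp*, which encodes tapasin, had 43.2, 49.2 and 59.6 CPM in sgInert and 39.8, 41.3 and 50.6 CPM in sgCebpa/b/d. The 5 sgLkb1 libraries had 39.0, 54.9, 54.9, 44.1 and 47.0 CPM. Its intervals were the narrowest of the 10 genes, with folds against sgInert of 0.823 to 1.14 in sgLkb1 and 0.761 to 1.03 in sgCebpa/b/d. *Erap1* was 88.4, 95.3 and 104.5 CPM in sgInert and 57.2, 95.9 and 106 CPM in sgCebpa/b/d, and 101, 96.9, 100.1, 102 and 74.0 CPM in sgLkb1. The sgInert libraries were close together, while replicates 5 and 7 of sgCebpa/b/d and replicate 5 of sgLkb1, none of which has a title number, were lower, at 67.8, 57.2 and 74.0 CPM, and replicate 3 of sgCebpa/b/d, which has an MT number, was also below every sgInert library, at 85.2 CPM. Of the 75-base windows of *Erap1* transcripts, 10.4% also occur in transcripts of *Cast*.

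*Nlrc5* was near the limit of detection. The 5 sgLkb1 libraries held 4 to 35 counts of it, the sgInert libraries 2 to 13 and the sgCebpa/b/d libraries 1 to 19. In CPM these were 0.360, 0.943 and 2.37 in sgInert (lowest, median, highest), 0.160, 2.20 and 3.62 in sgCebpa/b/d, and 0.462, 1.88, 1.52, 3.44 and 4.52 in sgLkb1. The log2 fold changes, 0.77 ± 0.58 and 0.98 ± 0.61 against sgInert, had adjusted p of 0.471 and 0.427 (edgeR). Among the other regulators of class I transcription and of interferon signaling, 1 of 30 genes tested was called in sgCebpa/b/d against sgInert (edgeR). None was called in sgLkb1 against sgInert or in sgCebpa/b/d against sgLkb1. Of all genes, 10.1%, 5.78% and 5.96% were called in these comparisons. At an unadjusted p under 0.05, 6, 3 and 3 of the 30 passed, where 23.2%, 18.5% and 18.3% of all genes did. *Irf1*, an interferon-regulated transcription factor, had log2 fold changes of 0.61 ± 0.24 in sgCebpa/b/d and 0.31 ± 0.27 in sgLkb1 (edgeR adjusted p = 0.122 and 0.592), and *Rfx5*, which binds the X box, -0.06 ± 0.21 and -0.09 ± 0.23 (edgeR adjusted p = 0.910 and 0.891).

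The immunoproteasome subunits were compared with the constitutive subunits they replace. Relative to *Psmb5*, *Psmb8* was higher in sgCebpa/b/d than in both other groups, and relative to *Psmb6*, *Psmb9* was higher in sgCebpa/b/d than in sgLkb1, in exact permutation tests whose calls were lost when libraries of 1 number were summed. *Psmb9* over *Psmb6* against sgInert, and *Psmb10* over *Psmb7* in every comparison, did not pass, and neither *Psmb8* nor *Psmb9* was called on its own. *Psmb8* had 7.74, 16.5 and 23.7 CPM (lowest, median, highest) in sgInert, 13.7, 23.1 and 25.6 CPM in sgCebpa/b/d, and 16.5, 15.8, 20.5, 16.2 and 19.2 CPM in sgLkb1. *Psmb9* had 4.14, 7.65 and 14.6 CPM in sgInert, 10.1, 12.7 and 18.5 CPM in sgCebpa/b/d, and 5.08, 6.27, 11.5, 7.08 and 5.97 CPM in sgLkb1. All groups overlapped, and of the sgLkb1 libraries only replicate 3 reached the sgCebpa/b/d range of *Psmb9*. In sgCebpa/b/d against sgInert, *Psmb8* had a log2 fold change of 0.35 ± 0.19 and *Psmb9* of 0.56 ± 0.25 (edgeR adjusted p = 0.303 and 0.166). In sgLkb1 against sgInert they were 0.09 ± 0.21 and -0.29 ± 0.27 (edgeR adjusted p = 0.890 and 0.646). Between sgCebpa/b/d and sgLkb1, *Psmb9* had a log2 fold change of 0.85 ± 0.27 and an adjusted p of 0.0746 with edgeR and 0.0358 with DESeq2, and of 0.0448 with edgeR on those 2 groups alone, where 6.97% of all genes were called. Without replicate 3 of sgLkb1 the edgeR value was 1.08 (adjusted p = 0.0306), and without replicate 6 of sgInert 0.83 (adjusted p = 0.0492). Other edgeR settings gave no call for this difference. Among MT libraries alone it was 0.515 (adjusted p = 0.383), and with libraries lacking a number left out 0.514 (adjusted p = 0.572). With length offsets it was 0.699 (adjusted p = 0.269), and with libraries of 1 number summed 0.947 (adjusted p = 0.106).

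Dividing each immunoproteasome subunit by its constitutive counterpart within a library removed the scaling between libraries. The log2 ratio of counts of *Psmb8* to *Psmb5* was -1.95 to -0.50 in sgInert, -1.30 to -0.68 in sgLkb1 and -0.70 to 0.07 in sgCebpa/b/d. The means of sgInert, sgCebpa/b/d and sgLkb1 were -0.93 ± 0.47 (SD, n = 7), -0.29 ± 0.27 (SD, n = 7) and -0.96 ± 0.27 (SD, n = 5). The difference was 0.65 between sgCebpa/b/d and sgInert (exact two-sided permutation test p = 0.00233, 0.0152 adjusted over 9 tests) and 0.67 between sgCebpa/b/d and sgLkb1 (exact permutation p = 0.00505, adjusted 0.0152). For *Psmb9* over *Psmb6* the means in the same order were -2.17 ± 0.63, -1.67 ± 0.28 and -2.53 ± 0.39. The difference between sgCebpa/b/d and sgLkb1 was 0.87 (exact permutation p = 0.00505, adjusted 0.0152), and that between sgCebpa/b/d and sgInert 0.50 (exact permutation p = 0.0670, adjusted 0.151), and lay between 0.00 and 0.59 in 4 alternatives. For *Psmb10* over *Psmb7* the means were -3.82 ± 0.63, -3.39 ± 0.36 and -3.51 ± 0.41, and no difference passed (exact permutation, adjusted p from 0.244 to 0.693). In sgLkb1 against sgInert none of the 3 ratios passed (exact permutation, adjusted p from 0.417 to 0.859). *Psmb5* itself had log2 fold changes of -0.23 ± 0.14 in sgCebpa/b/d and 0.19 ± 0.15 in sgLkb1 (edgeR adjusted p = 0.342 and 0.567), and the difference in the ratio holds both terms.

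These 3 ratio differences kept their direction in every alternative but lost their call in several. With the libraries of each title number summed, the differences were 0.63, 0.68 and 0.93 (exact permutation, adjusted p = 0.0714, 0.0952 and 0.0714). Among MT libraries alone they were 0.33, 0.60 and 0.56 (exact permutation, adjusted p = 0.450 each), a design of 4 against 3 libraries that cannot reach the threshold. As a ratio of TPM, the difference of *Psmb9* over *Psmb6* was 0.68 (exact permutation, adjusted p = 0.106), and the others kept their calls. With the libraries lacking a number left out they were 0.63, 0.60 and 0.56 (exact permutation, adjusted p = 0.164, 0.343 and 0.343). For both differences from sgLkb1 this setting holds the same 4 against 3 MT libraries, so no call was possible there either. Within sgCebpa/b/d the *Psmb8* to *Psmb5* ratio was -0.36 to 0.07 in the 3 libraries of the shared number and -0.70 to 0.02 in the other 4, so it was not confined to the libraries with high *B2m*. The *Psmb9* to *Psmb6* ratio was -1.61 to -1.36 in the 3 sgCebpa/b/d libraries without a number, the same libraries in which immune markers summed to 168 to 197 CPM, and -2.14 to -1.49 in the 4 with one.

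**Figure D4:**
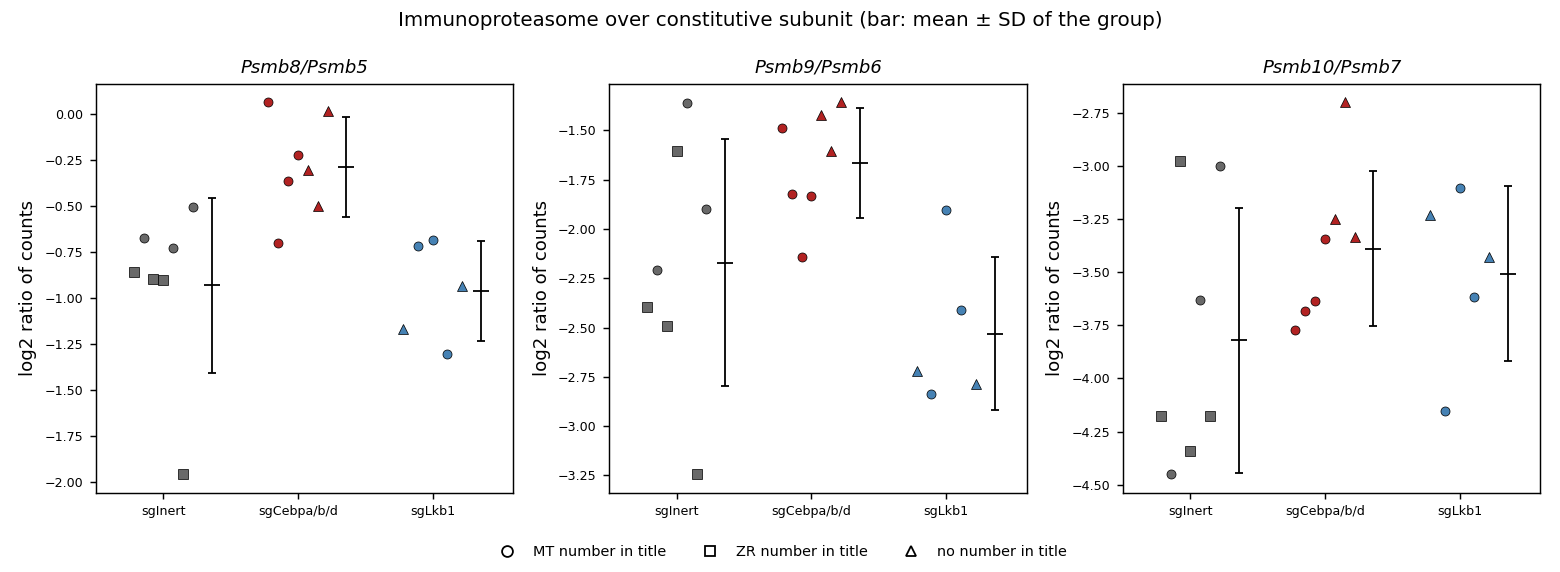
Log2 ratio of counts (vertical axis) of each immunoproteasome subunit over the constitutive subunit it replaces, by group (horizontal axis). Each point is a library, its shape gives the kind of title number, and bars show the mean ± SD of the group. For *Psmb8* over *Psmb5* the sgCebpa/b/d libraries lie between -0.70 and 0.07, and those of sgLkb1 between -1.30 and -0.68.

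Other genes of the pathway were also mostly without calls. Of 13 further class I heavy chain and class I-like genes tested, none was called in any comparison (edgeR), with 2, 1 and 4 at an unadjusted p under 0.05, where 23.2%, 18.5% and 18.3% of all genes passed. Against sgInert, sgLkb1 gave a median log2 fold change of -0.33 over these genes and sgCebpa/b/d of 0.47. Among MT libraries alone the medians were -0.20 and 0.045. Summed over the 25 such genes in the count files, the 3 libraries of the shared number had 233 to 300 CPM. The other 4 sgCebpa/b/d libraries had 133 to 212 CPM, sgInert 119 to 297 CPM and sgLkb1 129 to 184 CPM. Of 17 genes of peptide supply and loading, 1 was called in each comparison, where 10.1%, 5.78% and 5.96% of all genes were. *Psme1*, a subunit of the proteasome activator that interferon-gamma induces, fell by 0.35 on the log2 scale in sgCebpa/b/d against sgInert (edgeR adjusted p = 0.0135) and had no overlap between groups; groups that do not overlap in this direction were 2.09% of all genes. *Psme1* was -0.45 among MT libraries alone (adjusted p = 0.0687). *Sec61b*, a subunit of the channel into the endoplasmic reticulum, fell by 0.40 in sgLkb1 against sgInert (edgeR adjusted p = 0.0327), and was 0.41 higher in sgCebpa/b/d than in sgLkb1 (edgeR adjusted p = 0.0288). Within MT libraries it fell by 0.53 in sgLkb1 (adjusted p = 0.00954), and with libraries of 1 number summed its adjusted p was 0.135. Of the 3 constitutive catalytic subunits none was called in any comparison (edgeR), with 0, 0 and 1 at an unadjusted p under 0.05, against the same shares of all genes.

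Interferon-inducible genes outside the class I pathway were set beside the 10 genes, since interferons induce both. Of 30 tested, 7 rose and 0 fell in sgCebpa/b/d against sgInert (10.1% of all genes were called), with a median log2 fold change of 0.79. *Iigp1*, an immunity-related GTPase, rose by 2.05 ± 0.46, *Ifit2*, an antiviral RNA-binding protein, by 2.00 ± 0.47 and *Irgm2*, another of the GTPases, by 1.08 ± 0.28 on the log2 scale (edgeR adjusted p = 0.00482, 0.00754 and 0.0129). Among MT libraries alone, where immune markers summed to 18.3 to 23.2 CPM in sgCebpa/b/d and fibroblast markers to 90.6 to 327 CPM against 19.7 to 31.7 CPM in sgInert, 6 of 31 were called higher (8.55% of all genes were called) and the 3 genes had log2 fold changes of 2.44, 2.34 and 1.15 (edgeR adjusted p = 0.0410, 0.0447 and 0.0448). Of the 4 sgCebpa/b/d libraries with an MT number, 3 shared 1 number. The p-values among MT libraries count these 3 as separate. Summed over 37 interferon-inducible genes, these 3 libraries had 596 to 674 CPM. The other 4 sgCebpa/b/d libraries had 410 to 487 CPM and sgInert 279 to 475 CPM. Without the 3 libraries of the shared number, 2 of 31 rose and 2 fell (10.3% of all genes were called). With the libraries of each title number summed in every group, 3 of 31 rose (8.35% of all genes). With the libraries lacking a number also summed per virus, 0 of 31 were called by edgeR (3.16% of all genes). In that setting 11 of 31 had an unadjusted p under 0.05, as did 2249 of all 15273 genes tested. DESeq2 on the 19 libraries called 8 of 30 higher (13.0% of all genes were called). In sgLkb1 against sgInert 1 of 30 was called (5.78% of all genes), *Ifit2* (1.94 ± 0.50, edgeR adjusted p = 0.0222). Between sgCebpa/b/d and sgLkb1 1 of 30 was called (5.96% of all genes), *Ciita*, the class II counterpart of *Nlrc5* (0.59 ± 0.15, edgeR adjusted p = 0.0234).

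Over the 19 libraries, the genes outside the set whose log2 CPM most resembled the mean z-score of the 10 genes were *Pygl* (Pearson r 0.826), *H2-Q4* (0.819), *Cenpa* (0.801), *Hnrnpab* (0.800), *Fam3c* (0.795), *Muc1* (0.793), *Trex1* (0.790) and *Sema4a* (0.783). *H2-Q4* is a heavy chain gene, and the others belong to no list used here. Over the 10 MT libraries their r ranged from 0.479 to 0.917. Among the 10 genes themselves, *H2-K1* (0.840) and *H2-D1* (0.824) were closest to this mean and *Tap2* (0.233) farthest. The mean includes each of the 10 genes, which raises their r. Over the 10 MT libraries *H2-D1* (0.961) and *H2-K1* (0.876) were again closest, and *Erap1* (-0.698) and *Tapbp* (-0.435) farthest. Of the 45 pairs of the 10 genes, 39 had a correlation above 0 and 5 above 0.5, with a median of 0.223, so the genes did not vary as a block. The 3 pairs above 0.8 were those among *H2-K1*, *H2-D1* and *B2m*. These counts hold for the 19 libraries, and signs differed within the 10 MT libraries. There *H2-K1*, *H2-D1* and *B2m* had r of -0.658, -0.477 and -0.739 with *Tapbp*, against 0.169, 0.223 and 0.005 over all 19. With *Psmb8* their r in MT libraries stayed above 0, at 0.517, 0.660 and 0.824.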

How the data were processed

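Bulk RNA-seq libraries (n = 19) of sorted neoplastic cells were grouped by the virus in the labels. The authors used the Trio RNA-Seq kit, aligned reads with STAR 2.6.1d to mm10 and estimated levels with RSEM 1.2.30. The deposited expected counts are RSEM estimates without normalization and were rounded here. TPM, also deposited, is RSEM's length-scaled version of those estimates. The authors' DESeq2 1.26.0 tables hold fold changes, standard errors, p-values and normalized counts, and were not used.

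The filter was filterByExpr with a minimum count of 10 and a minimum total of 15. edgeR 4.0.16 (R 4.3.3) fitted TMM-scaled counts of all libraries in 1 quasi-likelihood model, and p-values were adjusted by Benjamini-Hochberg over all genes tested. A gene was called at an adjusted p under 0.05. Log2 CPM used a prior count of 2. Ratios used counts plus 0.5 and exact two-sided permutation tests (scipy 1.17.1), adjusted over 9 tests. CPM are counts per 1000000 of the TMM-scaled library total. Depth limits low genes most. Reads of amplified libraries are not independent molecules. No pair of libraries in 1 group differed by less than the sampling noise (chi-square per gene 6.78 to 69.0 over 52 pairs).

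The 10 genes and the gene lists were chosen with earlier results of these data known. The text names the 10 genes, *Stk11*, *Psmb5*, *Psmb6*, *Psmb7*, *Psmb10*, *Irf1* and *Rfx5*; from each other list the genes called, or the 3 smallest p in each direction where more than 5 were called; and the 8 genes most like the mean z-score of the 10. *H2-Q7* and *Cast*, and the markers *Sftpc*, *Epcam* and *Nkx2-1*, were named after their values were seen. Some items that this rule covers are not reported here. Of 12 lung epithelial markers, 2 were higher and 3 lower in each comparison with sgInert, where 10.1% and 5.78% of all genes were called. No erythroid marker was tested. Alternatives were DESeq2 1.42.0, limma 3.58.1 on log2(TPM + 1), RLE scaling, no filter, length offsets, sex or title series as covariates, fewer libraries, libraries of 1 number summed and a replicate block. Of these, 2 were chosen after seeing the data: leaving out the 3 sgCebpa/b/d libraries of 1 number, and also summing the libraries without a number per virus. The fit was tested on simulated counts drawn independently for each library. They held no shared animals, title series or sex differences, so that test does not bear on these features of the data. Coordinates are from GENCODE M21, in which 99.8% of the files' transcripts were found.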

Additional observations from a re-analysis of the deposited data

Results flagged for a closer look

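In a group, a library was set apart where its gap to the nearest other library, divided by the range of the group, exceeded Dixon's 95% critical value. Of 39 groups of values examined (10 genes and 3 ratios in 3 groups), 5 had such a library, and chance gives about 1 in 20. *B2m* was high in sgInert replicate 4 (ratio 0.639), at 10.40 log2 CPM against 9.15 to 9.60 in the other sgInert libraries. *Psmb9* was high in sgCebpa/b/d replicate 5 (ratio 0.581), at 4.24 log2 CPM against 3.38 to 3.74. *Nlrc5* was low in the same library (ratio 0.588), where it had 1 count. *Erap1* was low in sgLkb1 replicate 5 (ratio 0.833), at 6.21 log2 CPM against 6.60 to 6.68. The log2 ratio of *Psmb8* to *Psmb5* was low in sgInert replicate 6 (ratio 0.725), at -1.95 against -0.90 to -0.50, and the difference between sgCebpa/b/d and sgInert was 0.47 without that library, the lowest value on leaving out any 1 library (exact permutation, adjusted p from 0.0105 to 0.0260 over the 19 omissions).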

How the results depend on the processing

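The number of the 10 genes called was 0 in each comparison and became 1 in these settings: in sgCebpa/b/d against sgInert without the 3 sgCebpa/b/d libraries of 1 number; in sgLkb1 against sgInert with sex as covariate, with only the 2 groups, with a replicate block and without those 3 libraries; and in sgCebpa/b/d against sgLkb1 with DESeq2, sex as covariate, MT libraries alone, libraries lacking a number left out and only the 2 groups. The gene was *B2m* or *Psmb9*. Leaving out 1 library gave 0 to 0, 0 to 0 and 0 to 1 calls. Genes called over all genes numbered 1412, 809 and 833. They fell to 650, 421 and 391 with an absolute log2 fold change above 1 required as well. Without libraries lacking a number they were 881, 525 and 455, and with libraries without a number also summed per virus 482, 300 and 155. With libraries of 1 number summed they were 532 in sgLkb1 against sgInert and 466 in sgCebpa/b/d against sgLkb1. With title series as covariate, 926 were called in sgCebpa/b/d against sgInert, and with sex as covariate 1258 in sgLkb1 against sgInert. Leaving out 1 library gave 1182 to 1469, 543 to 875 and 577 to 879. The replicate numbers did not pair the libraries: over 17 pairs with the same number in different groups, the correlation of deviations from group means was -0.388 to 0.417, and 7 pairs exceeded 0.1. The replicate block called 1293, 873 and 661 genes, and of the 10 genes *B2m* in sgLkb1 against sgInert (-1.11, adjusted p = 0.0142). On log2(TPM + 1), limma moved the median of all genes to 0.18 in sgLkb1 against sgInert and to -0.15 in sgCebpa/b/d against sgLkb1. Of the single genes and ratios under all alternatives, 1101 values kept direction and side of the threshold, 13 passed it, 10 no longer did, and 78 values without a call changed sign.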
